A study of Mus musculus with 34 samples.

Results

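The 3 genes described here encode the inhibitory receptor PD1 (Pdcd1) and its 2 ligands, PD-L1 (Cd274) and PD-L2 (Pdcd1lg2). They were chosen by name, as the complete receptor and ligand set, from 32285 genes measured in single cells of mouse mammary tumours. All 3 were read in 10 sorted libraries and in 1 pooled table of whole tumours. In every group, MMTV-Wnt1 tumours, in which a mouse mammary tumour virus promoter drives Wnt1 in mammary epithelium, had been transplanted into C57BL6j mice. Immune libraries held CD45-positive cells drawn out with magnetic beads from tumours of mice given 5 doses of 4 mg/kg doxorubicin, a DNA-damaging chemotherapy drug, taken 48 h after the last dose (2 libraries), or of untreated mice (2 libraries). T cell libraries held CD4/8-positive cells, with 1 library per group. In 4 of these groups the same doxorubicin course was followed 48 h later by 3 antibody doses, 72 h apart, with harvest 24 h after the last. The antibodies were 200 ug anti-CTLA4 with 200 ug anti-PD-1 (the combination), 200 ug anti-CTLA4 with 200 ug IgG, 200 ug anti-PD1 with 200 ug IgG, or 400 ug IgG alone. The other 2 T cell groups were doxorubicin alone, harvested at 48 h, and untreated. The pooled table held 1 tumour after the same doxorubicin course, taken 48 h after the last dose, and 1 untreated tumour. Its hosts were 6 to 8 weeks old. The labels do not say whether the immune libraries of a group came from separate animals, so p-values measure the spread between these libraries, which may be technical.

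PD1 is a surface receptor that T cells acquire when their antigen receptor is engaged and keep when stimulation persists. When PD-L1 or PD-L2 binds it, its cytoplasmic tail recruits phosphatases that dampen signalling from the antigen receptor and CD28, and antibodies that block this contact are used against cancer. PD-L1 is found on many blood and tissue cells and is induced by interferon-gamma, whereas PD-L2 is known mainly from dendritic cells and macrophages and is also induced by interleukin-4 through STAT6.

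Pdcd1 lies on chromosome 1 (GRCm38, chr1:94038305-94052553, minus strand). The ligand genes are neighbours on the plus strand of chromosome 19, Cd274 at chr19:29367455-29388095 and Pdcd1lg2 at chr19:29410919-29471161, with 22.8 kb between the end of the first and the start of the second and 43.5 kb between their starts. Their promoters are shown because the receptor and the 2 neighbouring ligands differed in where they were detected. Each run is 300 bases, from 250 bases before to 50 after the RefSeq gene start (RefSeq, GRCm38.p6), and capitals mark matches to any of 4 motifs searched on both strands.
Pdcd1 (chr1:94052504-94052803, minus strand): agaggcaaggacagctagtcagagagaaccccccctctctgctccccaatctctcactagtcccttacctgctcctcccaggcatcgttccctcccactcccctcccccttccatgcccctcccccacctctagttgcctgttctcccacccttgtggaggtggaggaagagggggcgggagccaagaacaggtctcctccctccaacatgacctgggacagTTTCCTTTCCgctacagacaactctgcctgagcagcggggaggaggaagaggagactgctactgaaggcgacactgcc
Cd274 (chr19:29367188-29367487, plus strand): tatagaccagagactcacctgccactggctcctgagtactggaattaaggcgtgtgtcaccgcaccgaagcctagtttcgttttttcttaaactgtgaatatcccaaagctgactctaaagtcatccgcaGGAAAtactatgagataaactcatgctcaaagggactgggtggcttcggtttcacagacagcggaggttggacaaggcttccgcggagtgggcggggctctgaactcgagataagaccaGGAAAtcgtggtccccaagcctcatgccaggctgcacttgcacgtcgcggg
Pdcd1lg2 (chr19:29410669-29410968, plus strand): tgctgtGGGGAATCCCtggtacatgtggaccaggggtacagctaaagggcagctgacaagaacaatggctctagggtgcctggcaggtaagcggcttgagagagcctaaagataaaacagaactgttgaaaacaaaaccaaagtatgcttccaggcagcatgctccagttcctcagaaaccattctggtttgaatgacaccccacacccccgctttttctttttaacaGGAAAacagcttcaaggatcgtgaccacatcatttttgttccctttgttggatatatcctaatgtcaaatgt
The GGAAA core bound by NFAT proteins, which is held by 61.3% of 32851 promoters of this length, matched in all 3: in 2 adjacent copies on the strand opposite to the one printed for Pdcd1, in 2 copies in Cd274 and in 1 copy in Pdcd1lg2. Pdcd1lg2 alone of the 3 held the NF-kB type letters (GGGA, any 4 bases, CC), at position -244 from the start and on the strand opposite to the one printed, as did 20.7% of all promoters. The interferon-stimulated response element (GAAA, any 2 bases, GAAA; 3.44% of promoters) and the gamma-activated site (TTC, any 3 bases, GAA; 8.3%) matched none of the 3 windows. No 2 of these matches overlapped.

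After removal of cells with under 500 UMIs (unique molecular identifiers, each standing for 1 captured transcript), under 200 genes or 20% or more mitochondrial UMIs, 39181 sorted cells remained, 1480 to 7623 per library, with medians of 4001.5 to 10513 UMIs per cell. Each cell was assigned to 1 of 14 classes by markers that exclude the 3 genes, and 3.82 to 24.9% of cells per library stayed unassigned. Levels are UMIs per 10000 UMIs of all cells in the class, and shares are cells with at least 1 UMI. Brackets give exact Poisson 95% intervals, which cover counting error only. The sorts were not pure: besides 20584 T cells, the 10 libraries held 4638 macrophages, 3625 neutrophils and 5586 epithelial cells, which carry the tumour's keratins. A call at an adjusted p under 0.05 is from edgeR's quasi-likelihood test on summed counts, adjusted over all genes tested.

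Pdcd1 was a T cell transcript in these tumours. It reached 1.60 UMIs per 10000 (1.58 to 1.61) in T cells over the 10 sorted libraries, where 47.0% of 20584 cells carried it at a median of 8206.5 UMIs per cell. In epithelial cells, which should lack the receptor, it stood at 0.00418 UMIs per 10000 and in 1.38% of 5586 cells, at a median depth of 23358.5 UMIs. Within each of the 10 libraries T cells were above epithelial cells, by 183- to 1353-fold in the 9 libraries with any epithelial count; 22.0% of genes were higher in T cells in every library. The T cell level ran from 0.975 UMIs per 10000 at the lowest library through a median of 1.48 to 4.43 at the highest, and the highest, untreated immune replicate 2, stood apart from the other 9, which reached at most 2.24.

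Outside T cells the receptor was scarce. Its highest level there was 0.393 UMIs per 10000 (0.215 to 0.659) in B cells, from 14 UMIs in 2 of 65 cells. No UMI was found in 106 NK cells, which allows a level of up to 0.0378 UMIs per 10000 (exact Poisson upper bound). Macrophages had 0.0356, neutrophils 0.0143 and monocytes 0.0135 UMIs per 10000. Of the 195 macrophage UMIs, 154 came from untreated immune replicate 2, where Pdcd1 reached 0.157 UMIs per 10000, against 0 to 0.0664 in the other 9 libraries. The 8 T cell markers summed in macrophages were also highest in that library, at 1.72 UMIs per 10000 against 0.0619 to 1.15 elsewhere, with none of the 8 at 0 in any library, and their part in the macrophage value was not tested. Among 65 migratory dendritic cells 7 had a Pdcd1 UMI, with 18 UMIs in all (0.211 per 10000, 0.125 to 0.333). Type 1 dendritic cells had 11 UMIs in 5 of 43 cells (0.106 per 10000, 0.0530 to 0.190).

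Among T cell subsets of the 6 T cell libraries, Foxp3+ cells, the regulatory T cells, had the lowest Pdcd1. Their level was below that of Cd8+ cells in 5 of 5 libraries with enough cells, at 0.282 to 0.887 times the Cd8+ level (median 0.519), and 10.0% of genes were lower in Foxp3+ cells in all 5. Cd4+ Foxp3- cells, the helper-type cells, were above Cd8+ cells in 4 of 6 libraries and below them in the anti-CTLA4 and combination libraries, so no order between these 2 subsets held throughout.

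**Figure D1:**
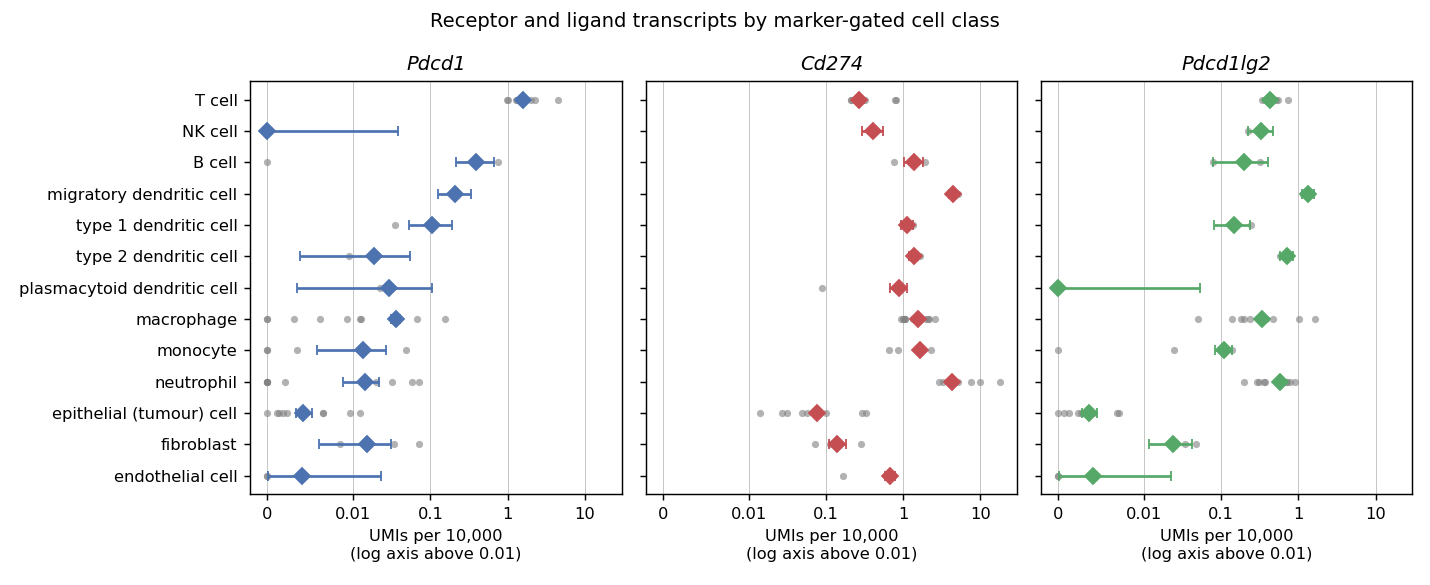
UMIs per 10000 of each gene (x axis, logarithmic above 0.01) in 13 marker-gated cell classes (rows). Diamonds are sums over the 10 sorted libraries with 95% Poisson intervals and grey points are single libraries with 20 or more cells of the class. Pdcd1 peaks in T cells at 1.60, Cd274 in migratory dendritic cells at 4.38 and neutrophils at 4.32, and Pdcd1lg2 in migratory dendritic cells at 1.34.

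T cells with and without a Pdcd1 UMI differed in other receptors of the same kind. To compare shares at 1 depth, every cell was thinned to 2000 UMIs. Ctla4, the receptor that competes with CD28 for its ligands, was found in a median of 44.3% of Pdcd1-positive and 29.5% of Pdcd1-negative T cells, and the share was higher in the positive cells in 10 of 10 libraries. Lag3, an inhibitory receptor for MHC class II, showed medians of 32.6% and 15.2% and was higher in positive cells in 10 of 10. The same held for Havcr2 (TIM-3), with medians of 11.3% in positive and 4.59% in negative cells, for the ectonucleotidase Entpd1 (CD39), with 8.08% and 4.46%, and for the costimulator Icos, with 40.4% and 30.4%. These 5 transcripts of other checkpoint or activation molecules thus had higher shares in Pdcd1-positive cells in every library. They come from a chosen list, and the share of all genes that did the same was not computed.

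Tox, a nuclear factor of chronically stimulated T cells, was higher in Pdcd1-positive cells in 9 of 10 libraries (medians 25.7% and 15.8%), as was the cytokine Ifng (30.2% and 16.2%). Tigit, another inhibitory receptor, was higher in 6 of 10 and the cytotoxic protease Gzmb in 6 of 10, so neither kept 1 direction. The receptor Cd160 was higher in 9 of 10, the cytokine Il13 in 7 of 10 and the factor Gata3 in 5 of 10. Tcf7, the factor of naive and memory-like T cells, went the other way: it was found in a median of 3.24% of positive and 10.95% of negative cells and was lower in the positive cells in 10 of 10 libraries. In Cd8+ cells alone, Ctla4, Lag3, Havcr2 and Entpd1 were higher in positive cells in 10 of 10 libraries and Tcf7 lower in 10 of 10, while Icos was higher in 8 of 10. In Cd4+ Foxp3- cells of 7 libraries Ctla4 and Havcr2 were higher in 7 of 7, Lag3, Entpd1 and Icos higher in 6 of 7 and Tcf7 lower in 6 of 7. These are shares of cells within libraries, with no share over all genes to set beside them, and carry no test between conditions.

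**Figure D2:**
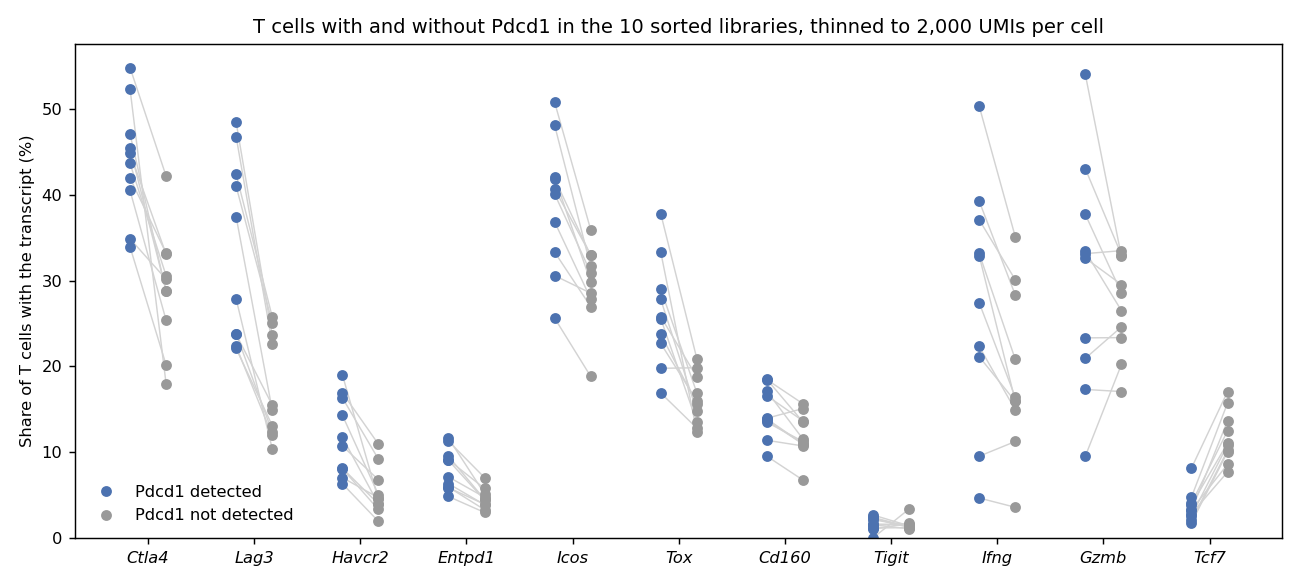
Share of T cells with each transcript (y axis, percent) among cells with Pdcd1 (blue) and without it (grey), after thinning to 2000 UMIs per cell. Each line joins the 2 shares of 1 of the 10 sorted libraries; the Lag3 lines all fall from left to right, with medians of 32.6% and 15.2%, and the Tcf7 lines all rise, with medians of 3.24% and 10.95%.

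Cd274 was spread over many classes and, per 10000 UMIs, was strongest in neutrophils and migratory dendritic cells. Neutrophils had 4.32 UMIs per 10000 (4.22 to 4.43) and carried it in 50.5% of 3625 cells despite a median depth of only 3184 UMIs. Neutrophils lay above macrophages of the same library in 9 of 9 libraries, by 2.79- to 8.49-fold with a median of 3.87-fold, where 7.58% of genes were higher in neutrophils in every library. They lay above T cells in 9 of 9, with a median of 18.6-fold (9.04% of genes), and above epithelial cells in 9 of 9, with a median of 126-fold (9.72%). Macrophages (1.59 UMIs per 10000, 48.7% of cells) and monocytes (1.68, 55.8%) came next, and macrophages were above T cells in 10 of 10 libraries by 1.29- to 9.82-fold (24.7% of genes). Counted per cell over the summed libraries, neutrophils did not stand above macrophages: 3625 neutrophils held 6356 Cd274 UMIs and 4638 macrophages held 8697. Within single libraries the order per cell differed. In the 48 h T cell library 255 neutrophils held 319 UMIs and 680 macrophages 495, so neutrophils had more per cell. With IgG 29 neutrophils held 43 and 272 macrophages 434, so they had fewer. The median depth was 3184 UMIs in neutrophils and 8838 in macrophages.

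The lymphoid and stromal classes had less Cd274. T cells held 0.267 UMIs per 10000 and NK cells 0.410 (0.293 to 0.559). B cells had 1.37 (1.02 to 1.82), but from 49 UMIs in 15 of 65 cells. Endothelial cells, which line blood vessels, had 0.680 (0.581 to 0.792), fibroblasts 0.142, and epithelial cells 0.0761 with a UMI in 10.8% of cells. T cells were above epithelial cells in 8 of 10 libraries and below them in the anti-CTLA4 and combination libraries, where the epithelial level was highest.

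Dendritic cells, the antigen-presenting cells that prime T cells, were few, 255 in the 10 sorted libraries. Of the 4 subsets, summed over libraries, only migratory cells stood apart in Cd274, by intervals that cover counting error only. Migratory dendritic cells (65 cells, 34 of them in untreated immune replicate 1), which carry antigen to lymph nodes, had Cd274 at 4.38 UMIs per 10000 (3.95 to 4.85) and in 76.9% of cells. Type 2 dendritic cells (94 cells, 60 in that library) had 1.37 (1.20 to 1.57) and type 1 dendritic cells (43 cells, 22 in that library) 1.14 (0.943 to 1.36), with intervals that overlap. Plasmacytoid dendritic cells, producers of type I interferon, had 0.877 over 53 cells, but 54 of their 61 UMIs came from 8 cells of untreated immune replicate 2 and the 31 cells of the untreated T cell library had 0.0903. Within untreated immune replicate 1 alone Cd274 was 5.18 UMIs per 10000 in migratory cells, 1.67 in type 2 and 1.33 in type 1 cells, and 7.67 in neutrophils.

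Pdcd1lg2 separated the dendritic subsets more sharply. It reached 1.34 UMIs per 10000 (1.10 to 1.60) in migratory dendritic cells, the highest of all classes, with a UMI in 39 of 65 cells. Type 2 dendritic cells had 0.702 (0.579 to 0.844) and 41.5%, and type 1 dendritic cells 0.145 (0.0811 to 0.239) and 20.9%. The 3 intervals, which cover counting error only, do not overlap, but 34, 60 and 22 of the cells came from the same library, as did 14 of the 15 Pdcd1lg2 UMIs in type 1 cells. In plasmacytoid dendritic cells no UMI was found in 53 cells, which allows up to 0.0530 UMIs per 10000. Within untreated immune replicate 1 alone the order was the same, at 1.14 in migratory, 0.579 in type 2 and 0.245 in type 1 cells.

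Both ligands were often found in the same dendritic cell. Of 65 migratory cells 33 carried both, 17 Cd274 only, 6 Pdcd1lg2 only and 9 neither, and the 50.8% with both stood beside 46.2% from the product of the 2 shares. In type 2 cells 26 of 94 carried both (27.7%, product 23.8%), and in type 1 cells 7 of 43 (16.3%, product 12.7%). Co-detection was thus within 5 percentage points of the product in each subset. In macrophages the 2 ligands were found together more often than their product in 10 of 10 libraries (median ratio 1.57), and in 8 of 10 after thinning to 2000 UMIs.

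Pdcd1lg2 was also a T cell transcript. T cells had 0.428 UMIs per 10000 (0.420 to 0.437) and 28.2% of cells with a UMI, against 0.00361 UMIs per 10000 and 1.07% of cells in epithelial cells. They were above epithelial cells in 10 of 10 libraries, as were 22.0% of genes. Macrophages had 0.339 and were above T cells in only 3 of 10 libraries. Neutrophils were above T cells in 4 of 9 libraries, with a median ratio of 0.984, so these 2 classes were not ordered. NK cells had 0.328 (0.224 to 0.463), neutrophils 0.587 (0.548 to 0.627), monocytes 0.108 (0.0833 to 0.138), and fibroblasts 0.0236. In 138 endothelial cells 1 UMI was counted. PD-L2 transcripts were thus present in lymphoid and myeloid classes alike, and nearly at 0 in vessel and tumour cells.

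Within T cells both ligands had higher levels in the CD4 subsets than in Cd8+ cells. Cd4+ Foxp3- cells were above Cd8+ cells for Pdcd1lg2 in 6 of 6 T cell libraries, at 0.642 to 0.961 UMIs per 10000 against 0.174 to 0.482 in Cd8+ cells, a median ratio of 2.45 (1.63 to 4.51). Foxp3+ cells were above Cd8+ cells in 5 of 5, with a median ratio of 2.65 (1.33 to 4.42). Cd274 ran the same way, higher in Cd4+ Foxp3- cells in 6 of 6 (median ratio 1.73) and in Foxp3+ cells in 5 of 5 (median ratio 2.74). Of all genes, 21.8% were higher in Cd4+ Foxp3- and 24.3% in Foxp3+ cells in every library. In single T cells Pdcd1 and Pdcd1lg2 were found together more often than the product of their shares in 10 of 10 libraries (median ratio 1.40), but in 7 of 10 after thinning (1.22). For Pdcd1 with Cd274 the count was 9 of 10, and 4 of 10 after thinning.

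The immune libraries answer whether the receptor and ligands differed after chemotherapy. In macrophages of these libraries Cd274 was lower after doxorubicin. It stood at 1.05 and 1.05 UMIs per 10000 in the 2 doxorubicin libraries and at 2.18 and 2.13 in the 2 untreated libraries, or 1.05 ± 0.00212 and 2.16 ± 0.0325 (SD, n = 2 each). Replicates lay close together and the groups did not overlap, as was so in this direction for 24.7% of genes. The log2 change was -1.09 (SE 0.189, edgeR adjusted p = 0.0200), among 5.41% of 11702 genes called and 2.75% called lower, or 633 genes called, against 1708 without untreated replicate 1. The share of macrophages with a UMI was 44.8% and 43.0% after doxorubicin and 68.0% and 56.6% in untreated tumours, and thinned to 2000 UMIs 13.5% and 14.7% against 31.7% and 27.1%. The call was lost without doxorubicin replicate 1 (edgeR adjusted p = 0.149, with 3 genes called) or 2 (0.176, with 0 called). It was also lost when classes were taken from Leiden clusters instead of single-cell gates, where the log2 change was -0.37 (edgeR adjusted p = 0.453). The 10 neutrophil markers summed in these macrophages were 7.95 and 5.55 UMIs per 10000 after doxorubicin against 2.07 and 3.13 in untreated tumours, all 10 above 0, and their part was not tested. Macrophages of the T cell libraries, with 1 library per group, did not show the fall. Their Cd274 was 1.04 UMIs per 10000 at 48 h and 0.992 untreated, a ratio of 1.05 (0.921 to 1.20, counting error only). This difference between the sorts was not tested.

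Monocytes, the blood-derived precursors of tumour macrophages, showed the same direction. Cd274 stood at 0.655 and 0.868 UMIs per 10000 after doxorubicin (21 and 135 cells), against 2.29 and 1.51 in untreated tumours (262 and 66 cells). The log2 change was -1.40 (SE 0.295, edgeR adjusted p = 0.0474), with 0.993% of 7551 genes called and 0.808% called lower. The groups did not overlap, as for 15.6% of genes in this direction, but leaving out doxorubicin replicate 1 (0.125) or 2 (0.104) or untreated replicate 1 (0.211) took the edgeR adjusted p past 0.05.

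Neutrophils had the widest gap in Cd274 and the widest spread. The level was 2.93 and 3.94 UMIs per 10000 after doxorubicin (821 and 1922 cells), against 7.67 and 18.1 in untreated tumours (341 and 92 cells), or 3.43 ± 0.717 and 12.9 ± 7.40 (SD, n = 2 each). Cells with 5 or more Cd274 UMIs made up 11.5% and 9.42% after doxorubicin and 22.0% and 42.4% in untreated tumours, at median depths of 4861 and 3077 against 2983 and 3184.5 UMIs. Both doxorubicin libraries were below both untreated ones, as for 11.1% of genes. The log2 change of -2.16 (SE 0.511) did not pass, with an edgeR adjusted p of 0.295: edgeR called 0 of 9302 genes in neutrophils (0.0%), 721 genes (7.75%) having an unadjusted p under 0.05, whereas DESeq2 called 115 genes and gave Cd274 -2.24 (adjusted p = 0.00140). Without untreated replicate 2 the log2 change was -1.19 (edgeR adjusted p = 0.726).

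In epithelial cells of the immune libraries Cd274 was low in both groups, at 0.0496 and 0.0312 UMIs per 10000 after doxorubicin and 0.0569 and 0.0804 in untreated tumours. The log2 change was -0.98 (SE 0.441, edgeR adjusted p = 0.219), with 5.33% of 12728 genes called, 2.43% higher and 2.9% lower. Both doxorubicin libraries lay below both untreated ones, as for 20.8% of genes. The stricter gate lowered the doxorubicin mean to 0.0128, and thinning to 0.0108, against 0.0404 in the main analysis. Neutrophil markers summed in these cells were 102 and 2.54 UMIs per 10000 after doxorubicin against 0.462 and 0.621 in untreated tumours, and their part was not tested. Cd274 in T cells, at 0.324 and 0.810 after doxorubicin and 0.308 and 0.790 in untreated tumours, differed more between replicates than between groups.

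**Figure D3:**
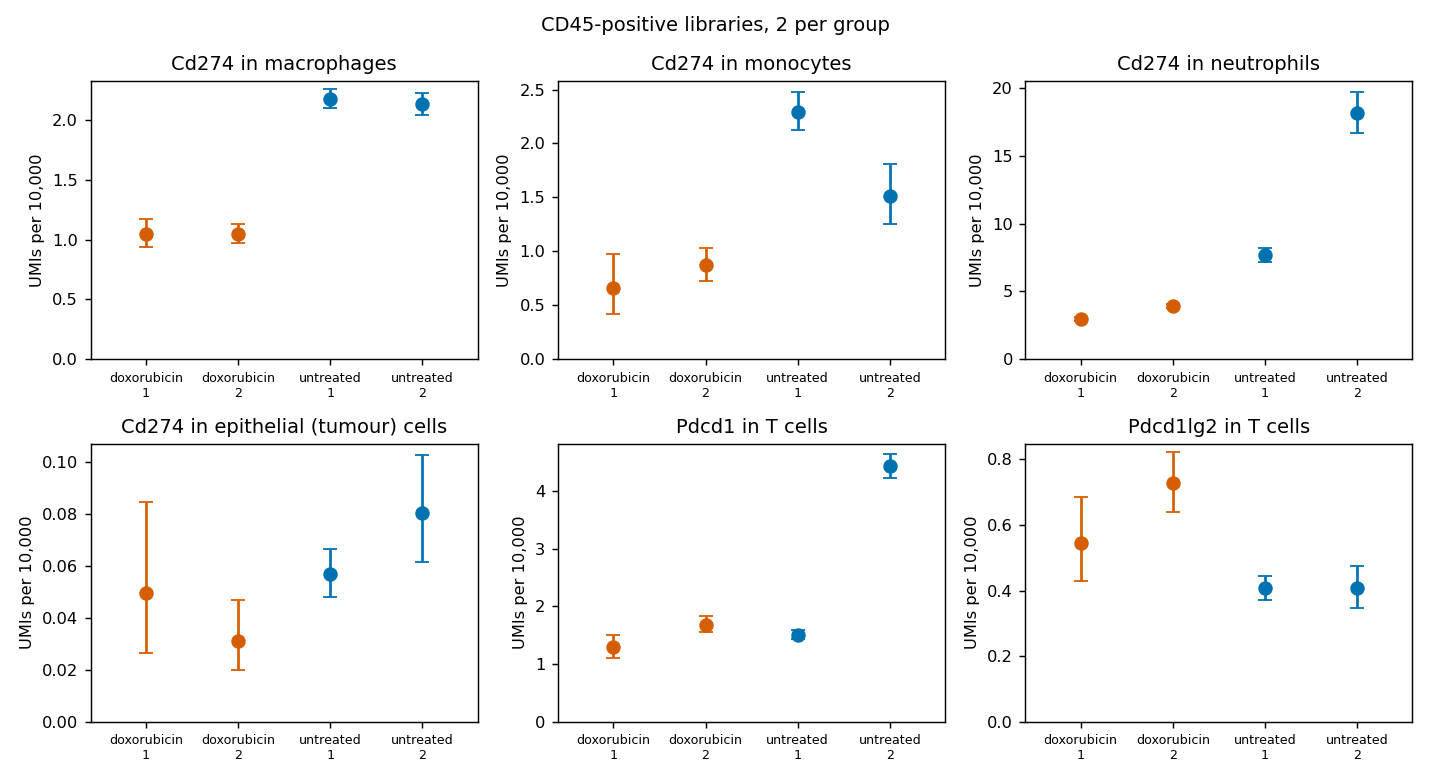
UMIs per 10000 (y axis) in the 4 CD45-positive libraries, doxorubicin in orange and untreated in blue, with 95% Poisson intervals. Cd274 in macrophages is 1.05 and 1.05 after doxorubicin against 2.18 and 2.13 in untreated tumours, whereas Pdcd1 in T cells is set apart in 1 untreated library at 4.43.

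Pdcd1 in T cells did not separate the groups. Its level was 1.29 and 1.68 UMIs per 10000 after doxorubicin, against 1.51 and 4.43 in untreated tumours, in 39.3% and 47.1% against 46.9% and 71.5% of cells. The log2 change was -1.04 (SE 0.493, edgeR adjusted p = 0.795), and edgeR called 0 of 10500 genes in T cells (0.0%), although 674 genes (6.42%) had an unadjusted p under 0.05 and DESeq2 called 29. Leaving out the second untreated library brought the Pdcd1 change to -0.16, and leaving out the first brought it to -1.62 (edgeR adjusted p = 0.00577). Summed over whole libraries Pdcd1 had a log2 change of -1.82 (SE 0.648, edgeR adjusted p = 0.164, with 5.5% of 16068 genes called), and it was called by DESeq2 (adjusted p = 0.00971) and, without untreated replicate 1, by edgeR (-2.45, adjusted p = 0.0300). In whole libraries fewer T cells and less Pdcd1 per T cell cannot be told apart: T cells numbered 112 of 1480 and 357 of 3996 cells after doxorubicin and 909 of 3581 and 260 of 1797 in untreated tumours.

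Pdcd1lg2 in T cells went the other way without passing the test. It was 0.545 and 0.727 UMIs per 10000 after doxorubicin and 0.407 and 0.407 in untreated tumours, so the groups did not overlap, as for 23.7% of genes in this direction. The log2 change was 0.59 (SE 0.221, edgeR adjusted p = 0.748). In macrophages Pdcd1lg2 overlapped between the groups, at 0.140 and 0.384 after doxorubicin and 0.475 and 0.238 in untreated tumours (log2 change -0.45, edgeR adjusted p = 0.707), and in neutrophils it was 0.311 and 0.768 against 0.701 and 0.911 (log2 change -0.74, edgeR adjusted p = 0.802). In type 2 dendritic cells, described without a test, doxorubicin replicate 2 had 0.939 UMIs per 10000 (17 cells) and untreated replicate 1 had 0.579 (60 cells), with overlapping intervals.

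Of the 11 genes on the list that carries the interferon-gamma signal to Cd274, none was called higher in macrophages after doxorubicin and 3 were called lower. Of all genes, 5.41% were called in either direction and 2.75% lower, so no call higher among 11 genes is not set apart from that share. Those called lower include the factor Irf1, which binds the Cd274 gene in human cells (log2 change -2.11, SE 0.308, edgeR adjusted p = 0.0141), and Socs1, a feedback inhibitor of cytokine signalling (-1.30, 0.0237). The median log2 change of the 11 was -0.12 and that of all genes -0.00382. Socs1 also fell in monocytes (-1.47, edgeR adjusted p = 0.0355). In epithelial cells the receptor chain Ifngr1 rose (1.21, edgeR adjusted p = 0.0264), in a comparison where edgeR called 678 of 12728 genes, and 13 genes under the stricter gate. Ifng itself fell in whole libraries (-3.07, edgeR adjusted p = 0.0199, where 2.26% of genes were called lower). There, fewer T cells and less Ifng per T cell cannot be told apart. Within T cells Ifng was not called (-2.62, edgeR adjusted p = 0.669). For Irf1 in neutrophils (-2.33) the edgeR adjusted p was 0.230.

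Members of other lists were also called in macrophages, where 2.75% of all genes were called lower. Of 6 inhibitory receptors tested, 3 fell: Lag3 (log2 change -3.19, edgeR adjusted p = 0.00581), Havcr2 (-1.43, 0.0299) and Cd244a (-1.06, 0.0421). The list's median log2 change was -1.25. The 8 T cell markers in these macrophages summed to levels of 0.0619 and 0.292 after doxorubicin against 0.219 and 1.72 in untreated tumours. All 8 were detected in each library, and the groups overlapped. The part of T cell transcripts in the falls of these receptors was not tested. Of 13 dendritic cell maturation genes 3 fell, the interleukin-12 subunit Il12b (-5.63, edgeR adjusted p = 0.00161), the costimulatory receptor Cd40 (-1.75, 0.00916) and the chemokine receptor Ccr7 (-1.54, 0.0462), with a median of -0.29. Prdm1 (BLIMP-1) was the 1 of 11 tested transcription factors tied to Pdcd1 that fell (-1.05, edgeR adjusted p = 0.0193). None of the 11 tested genes of PD1 signalling (median -0.40) and none of the 9 partners and stability factors of PD-L1 (median 0.22) was called in macrophages. The macrophage calls rest on both doxorubicin libraries: over all genes edgeR called 633, against 3 without doxorubicin replicate 1, 0 without replicate 2 and 98 with Leiden classes. In monocytes Cd80, a ligand of CD28 and CTLA4 that also binds PD-L1, rose (1.73, edgeR adjusted p = 0.0254, where 0.185% of genes were called higher). In T cells no gene of any of the 6 lists was called.

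The T cell libraries set each checkpoint antibody against IgG after doxorubicin, and the 48 h time against untreated tumours. With 1 library per group there is no test, and ratios carry exact 95% intervals for counting error only. Pdcd1 in T cells was 2.24 UMIs per 10000 with the combination, 1.98 with anti-CTLA4, 0.997 with anti-PD1, 1.34 with IgG, 1.44 at 48 h and 0.975 in the untreated library. The combination library was 1.68 times the IgG library (1.62 to 1.74), past the 1.5-fold size that 4.84% of genes exceeded in this direction. The anti-CTLA4 ratio was 1.48 (1.43 to 1.54), just under it, where 6.49% of genes lay above, and the anti-PD1 ratio was 0.746 (0.711 to 0.783). At 48 h the ratio to the untreated library was 1.48 (1.41 to 1.55), where 15.7% of genes were past 1.5-fold higher. Libraries with anti-CTLA4 thus had the highest receptor transcript and the anti-PD1 library was close to the untreated one.

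The share of T cells with Pdcd1 was 66.7% with the combination, 61.8% with anti-CTLA4, 34.3% with anti-PD1, 46.1% with IgG, 40.6% at 48 h and 34.8% untreated. Thinned to 2000 UMIs they were 30.9%, 26.4%, 15.1%, 20.9%, 20.6% and 15.1% in the same order of groups. In Cd8+ cells the Pdcd1 ratio to IgG was 1.76 (1.69 to 1.84) with the combination and 1.53 (1.47 to 1.60) with anti-CTLA4, past 1.5-fold as for 6.1% and 9.98% of genes. In Foxp3+ cells the combination ratio was 0.958 (0.680 to 1.34), and in Cd4+ Foxp3- cells 1.22 (1.07 to 1.40) with the combination and 0.892 (0.763 to 1.04) with anti-CTLA4. With anti-PD1 the 3 subsets had ratios of 0.766 in Cd8+, 0.752 in Cd4+ Foxp3- and 0.723 in Foxp3+ cells, so the lower level was shared by all 3. In Foxp3+ cells Pdcd1 stood out at 48 h, at 1.12 UMIs per 10000, against 0.693 in the untreated library (ratio 1.62, 1.25 to 2.08, with 10.8% of genes past 1.5-fold higher), and the IgG library was 0.617 times the 48 h one (0.454 to 0.838, with 7.87% past 1.5-fold lower).

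**Figure D4:**
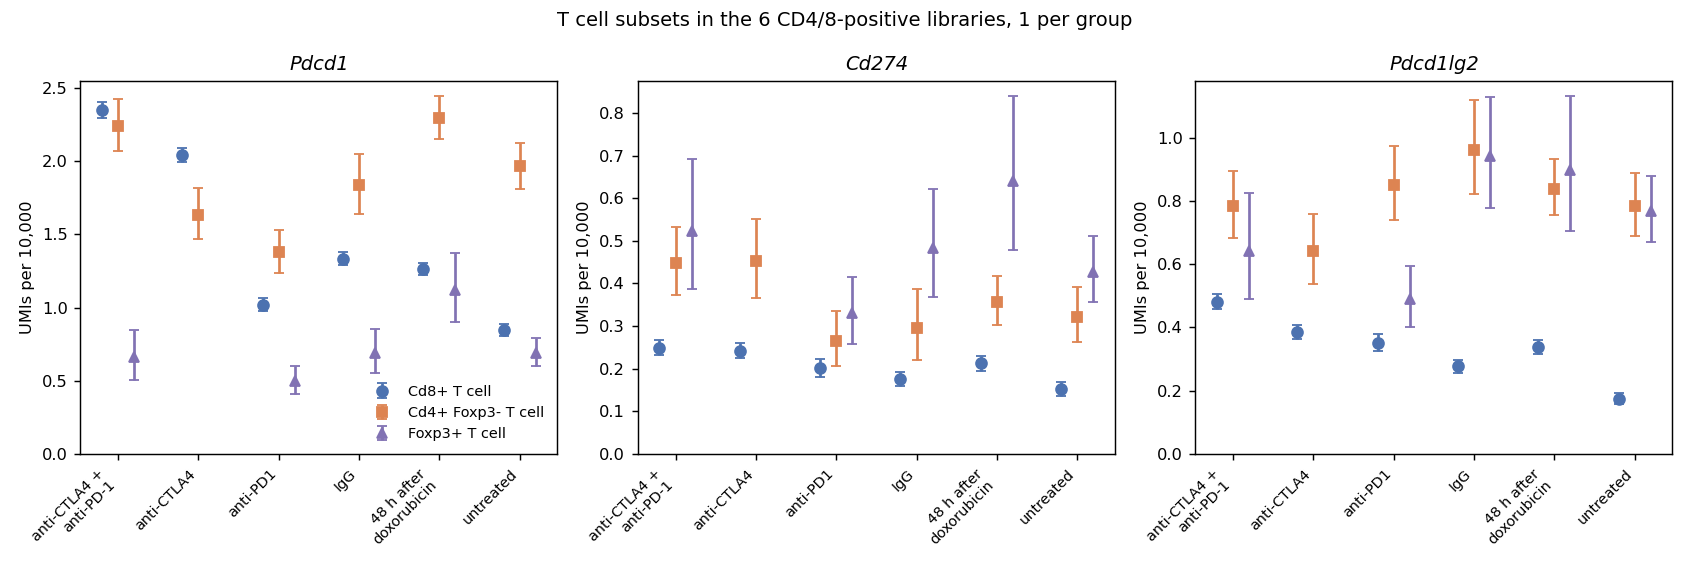
UMIs per 10000 of each gene (y axis) in Cd8+ (circles), Cd4+ Foxp3- (squares) and Foxp3+ T cells (triangles) of the 6 CD4/8-positive libraries (x axis), with 95% Poisson intervals; subsets with under 20 cells are left out. Cd8+ Pdcd1 is 2.35 with the combination and 1.33 with IgG, and Pdcd1lg2 lies lower in Cd8+ than in Cd4+ Foxp3- cells in all 6 libraries.

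Pdcd1lg2 in Cd8+ cells was also highest with the combination. It was 0.482 UMIs per 10000 with the combination, 0.384 with anti-CTLA4, 0.351 with anti-PD1, 0.277 with IgG, 0.339 at 48 h and 0.174 in the untreated library. The combination ratio to IgG was 1.74 (1.59 to 1.91), where 6.1% of genes were past 1.5-fold higher. The 48 h ratio to untreated was 1.95 (1.72 to 2.20), where 16.4% of genes were past 1.5-fold higher. In Foxp3+ cells the direction was opposite, with ratios to IgG of 0.682 (0.491 to 0.939) for the combination and 0.522 (0.398 to 0.684) for anti-PD1, where 8.13% of genes were past 1.5-fold lower. Over all T cells no antibody arm was past 1.5-fold for either ligand, the Pdcd1lg2 ratios being 1.41, 1.09 and 1.21 and the Cd274 ratios 1.34, 1.25 and 1.11 for the combination, anti-CTLA4 and anti-PD1. In Cd4+ Foxp3- cells Cd274 ratios were 1.51 (1.08 to 2.14) with the combination and 1.53 (1.08 to 2.19) with anti-CTLA4, where 4.7% and 7.04% of genes were past 1.5-fold higher.

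Macrophages that came through the CD4/8 sort showed the widest range of Pdcd1lg2. The level was 1.63 UMIs per 10000 with the combination (84 cells), 1.03 with anti-CTLA4 (212), 0.0502 with anti-PD1 (672), 0.347 with IgG (272), 0.181 at 48 h (680) and 0.197 in the untreated library (368). The ratio to IgG was 4.68 (3.69 to 5.96) with the combination, 2.96 (2.34 to 3.76) with anti-CTLA4 and 0.145 (0.0969 to 0.212) with anti-PD1. These lay past 1.5-fold as did 7.18%, 5.0% and 8.83% of genes in those directions. Shares of cells with a UMI were 26.9%, 3.42% and 13.2% in the anti-CTLA4, anti-PD1 and IgG libraries, and 42 of 84 cells with the combination, at median depths of 2747, 8798.5, 6296.5 and 12303.5 UMIs in that order. Thinning moved the anti-PD1 ratio to 0.285. The IgG library was in turn 1.92 times the 48 h library (1.43 to 2.57, with 4.82% of genes past 1.5-fold higher). The summed migratory dendritic cell markers in these macrophages ran in part alongside, at 2.13 with the combination, 1.46 with anti-CTLA4, 0.539 with anti-PD1 and 0.4001 UMIs per 10000 with IgG, with Fscn1, Nudt17 and Tmem150c at 0 in the combination library and Cacnb3, Nudt17 and Tmem150c at 0 in the anti-CTLA4 library. The 8 T cell markers in these macrophages summed to 1.15 with the combination, 0.809 with anti-CTLA4, 0.570 with anti-PD1 and 0.444 UMIs per 10000 with IgG, with none of the 8 at 0. The part of both marker lists was not tested.

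Cd274 in the same macrophages varied less. It was 2.01 UMIs per 10000 with the combination, 2.61 with anti-CTLA4, 0.955 with anti-PD1, 1.35 with IgG, 1.04 at 48 h and 0.992 untreated. The ratio to IgG was 1.94 (1.70 to 2.20) with anti-CTLA4, 1.49 (1.27 to 1.75) with the combination and 0.709 (0.628 to 0.801) with anti-PD1. With anti-CTLA4 5.0% of genes were past 1.5-fold higher, and thinning brought the anti-CTLA4 ratio to 1.22. Neutrophil Cd274 was 9.98 with the combination (20 cells) and 5.21 with IgG (29 cells), a ratio of 1.92 (1.29 to 2.87), where 16.2% of the 228 genes counted were past 1.5-fold higher.

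Epithelial Cd274 in the T cell libraries spanned a wide range at low levels. It was 0.334 UMIs per 10000 with the combination, 0.295 with anti-CTLA4, 0.0269 with anti-PD1, 0.102 with IgG, 0.0763 at 48 h and 0.0139 in the untreated library. The ratio to IgG was 3.28 (2.64 to 4.08) with the combination, 2.90 (2.43 to 3.47) with anti-CTLA4 and 0.265 (0.209 to 0.334) with anti-PD1, where 8.33%, 7.92% and 7.05% of genes were past 1.5-fold in those directions. At 48 h the ratio to untreated was 5.48 (3.90 to 7.90), where 25.8% of genes were past 1.5-fold higher. The combination ratio was 2.19 under the stricter gate and 9.91 after thinning, and the anti-PD1 ratio 0.596 after thinning. Macrophage markers summed in the epithelial cells were 1.26, 1.33, 1.98, 0.746, 4.08 and 0.936 UMIs per 10000 in the 6 libraries in the same order, highest at 48 h, and neutrophil markers 0.495, 0.193, 0.295, 0.164, 1.12 and 0.223; their part was not tested. Both ligands in macrophages and Cd274 in epithelial cells were thus lower with anti-PD1 and higher with anti-CTLA4 than with IgG, in comparisons that share the IgG library.

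**Figure D5:**
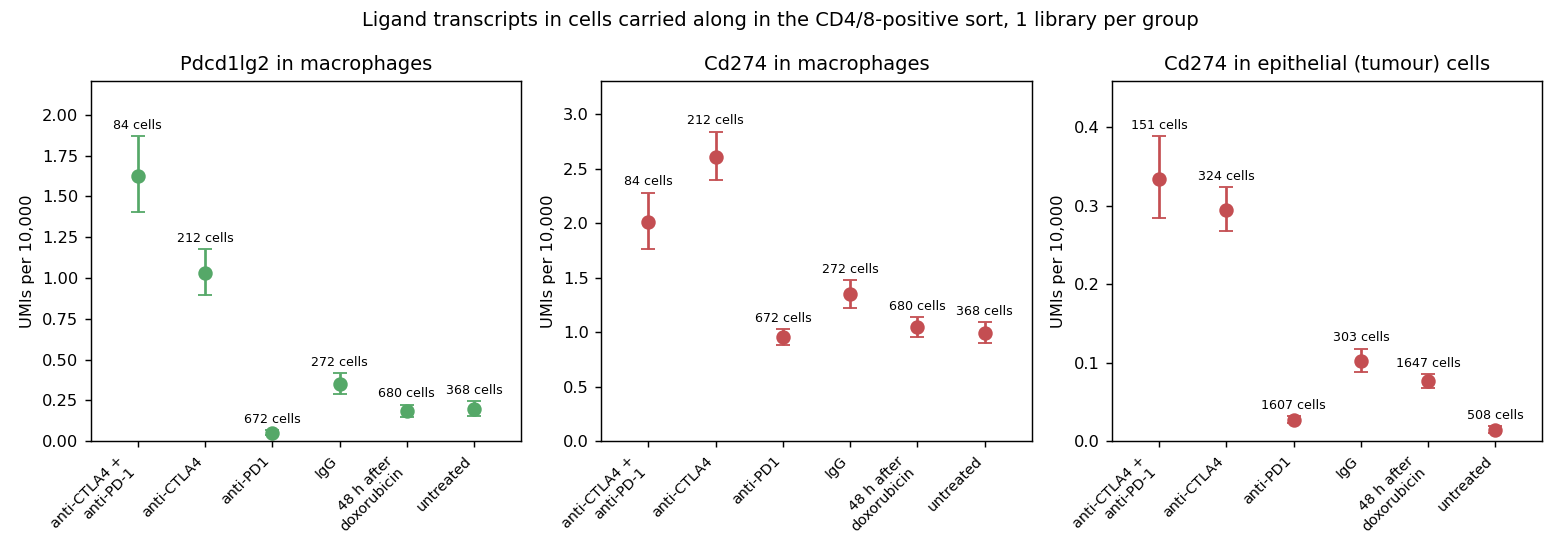
UMIs per 10000 (y axis) of Pdcd1lg2 and Cd274 in macrophages and of Cd274 in epithelial cells of the 6 CD4/8-positive libraries (x axis), with 95% Poisson intervals and the number of cells above each point. Macrophage Pdcd1lg2 is 1.63 with the combination and 0.0502 with anti-PD1, either side of 0.347 with IgG.

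Over 56 sums of 1 class in 1 library (13 classes, 10 libraries), the genes whose log2 levels ran most like Pdcd1 were Themis (Pearson r = 0.94), C230024C17Rik (0.92), Ppp2r2c (0.92), Cxcr6 (0.92) and Trat1 (0.91). Themis, Cxcr6 and Trat1 are known from T cells. Cd274 was most like Nfkbie (0.92), an inhibitor of NF-kB, followed by Trim30d (0.88), Gsap (0.88), Cflar (0.88) and Ccrl2 (0.88). Pdcd1lg2 was most like Bcl2a1b (0.88) and Bcl2a1d (0.87), near-identical copies of an anti-apoptotic gene whose reads counting may divide, and like Rgs2 (0.85), Rgs1 (0.85) and Tnfaip3 (0.84). Between the 3 genes r was 0.69 for the 2 ligands, 0.48 for Pdcd1 with Pdcd1lg2 and -0.04 for Pdcd1 with Cd274. The sums share libraries and depth, and these values are descriptions.

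The pooled table of 2 whole tumours (1 doxorubicin, 1 untreated, hosts 6 to 8 weeks old) does not say which tumour a cell came from and is 1 sample of 4016 cells. Its T cells had Pdcd1 at 1.41 UMIs per 10000 (1.30 to 1.54, 417 cells) and Pdcd1lg2 at 0.339, both inside the range of the sorted libraries. Its 14 migratory dendritic cells had Cd274 at 2.35 (1.69 to 3.18) and Pdcd1lg2 at 1.79 (1.23 to 2.53). Cd274 was 2.60 in 855 neutrophils and 0.466 in 668 macrophages, each below the lowest sorted library, and 0.0428 in 1437 epithelial cells. Unsorted tumours thus showed neutrophils and migratory dendritic cells as the classes with most Cd274 per 10000 UMIs, as the sorted libraries did.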

How the data were processed

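The sorted matrices and the pooled table hold UMI counts per gene and cell that the authors deposited. Per the file headers the matrices were written by Cell Ranger 6.0.0, the labels give GRCm38 as the build, and the submitters' processing notes also name Seurat. The matrices carry no gene names. Rows were named by the gene order of the pooled table: log totals of the 2 tables correlated at 0.954 to 0.984 so aligned, and no shift of up to 50 rows gave over 0.354. Sorted libraries held 16908180 to 93748407 UMIs each. No 2 sorted cells had identical counts, the matrices carry no barcodes to compare, and the 2 barcode sets of the pooled table (1508 and 2508 cells) share 0. A bulk table of the tumour line has 12 value columns that were not used, and the ATAC samples were not analysed here.

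A class needed the highest share of its markers, at least 3 markers detected and a margin of 0.2 over any other lineage; cells with markers of 2 lineages stayed unassigned, and no doublet caller was run. Leiden clusters (2000 variable genes, 30 components, 15 neighbours, resolution 1) gave the same class in 98.0% of 25766 cells named by both, out of 39181. Clusters of 4382 and 2535 cells, gated as T cells in 99.6% and 98.0%, stayed unnamed. So did a cluster of 1459 cells, gated as macrophages in 54.7%, and Leiden classes leave such cells out. T cells were split by UMIs of Cd4, Cd8a or Cd8b1, and Foxp3. Sums per class and library (20 or more cells in each) were tested with edgeR 4.0.16 (TMM scaling, filterByExpr, quasi-likelihood, Benjamini-Hochberg) in R 4.3.3, with limma 3.58.1 and DESeq2 1.42.0. Python 3.11.15 with numpy 2.4.6, scipy 1.17.1, pandas 2.3.3, scikit-learn 1.9.0, igraph 0.11.9 and matplotlib 3.10.9 did the rest. Tests were tried on simulated data. Alternatives were other scaling (RLE), DESeq2, no filter on low counts, each library left out, a replicate block, cells of 1000 or more UMIs, a margin of 0.4, Leiden classes and thinning to 2000 UMIs. Background shares for ratios use genes with 100 or more UMIs. The genes named by likeness are the 5 with the highest r among genes at 10 CPM or more in 1 sum, on log2(CPM + 1); of each list, up to 4 called genes are named, except 1 gene that is not reported here. The 3 genes, the lists, the classes and the tests were chosen with earlier results of these data known. Replicate numbers were not shown to pair the libraries.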

Additional observations from a re-analysis of the deposited data

Results flagged for a closer look

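Cd274 in epithelial cells stood out because the same contrast ran in opposite directions in the 2 sorts. At 48 h after doxorubicin the T cell library was 5.48 times its untreated counterpart (0.0763 against 0.0139 UMIs per 10000), whereas both immune libraries after doxorubicin (0.0496 and 0.0312) lay below both untreated ones (0.0569 and 0.0804). The difference between the sorts was not tested, and the T cell sort has 1 library per group.

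Cd274 in neutrophils did the same. The ratio at 48 h was 1.38 in the T cell sort (4.60 in 255 cells against 3.33 in 61 cells), whereas the immune libraries had 2.93 and 3.94 after doxorubicin against 7.67 and 18.1 in untreated tumours. This difference was not tested either.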

How the results depend on the processing

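For 63 results, 286 values were recomputed under other settings: 228 stayed the same, 8 lost a call, 8 gained one, 27 moved and 15 changed sign. For tests, the same meant an unchanged direction and side of the threshold. Mean levels of immune libraries had to stay within the replicate spread. T cell library ratios and pooled table levels had to stay within the counting interval, and co-detection counts within 1.5-fold. Unless a construction shows it, the cause was not tested. Log2 changes of doxorubicin against untreated are given with edgeR unless DESeq2 is named. Pdcd1 in whole libraries was called by DESeq2 (-1.80, adjusted p = 0.00971) and with the replicate block (-1.67, edgeR adjusted p = 0.0198), and in T cells without the filter on low counts (-1.09, 0.0105). Cd274 in neutrophils was called by DESeq2 (-2.24, 0.00140), without the filter (-2.01, 2.75e-05) and with the block (-1.99, 3.58e-07). Cd274 in T cells was -0.0119 by DESeq2, -0.0196 without the filter and -0.00845 with the block. Leiden classes gave a log2 change of -0.37 (edgeR adjusted p = 0.453) for Cd274 and of 0.00854 (edgeR adjusted p = 0.991) for Pdcd1lg2 in macrophages. Cd274 in monocytes was -1.35 (0.174) with the block and -1.40 (0.0504) with cells of 1000 or more UMIs. Counts of genes called over all genes moved by over 1.5 times in whole libraries from 884 to 2516 (DESeq2), 2005 (no filter) and 1593 (block), in T cells from 0 to 29 (DESeq2), 173 (no filter), 27 (block), 9 (stricter gate) and 31 (Leiden), and in neutrophils from 0 to 115, 215, 265, 47 and 84 under the same settings. In macrophages 633 became 1681 without the filter and 98 with Leiden classes, in monocytes 75 became 247 without the filter and 35 with the block, and in epithelial cells 678 became 1287 (DESeq2), 2143 (no filter), 1446 (block) and 13 (stricter gate). The block changed no other call of the 3 genes; replicate deviations correlated at -0.021 to 0.329 over classes, and 2 pairs do not show pairing.

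Leaving out 1 library at a time gave -2.45 to -0.73 for Pdcd1, -0.18 to 0.52 for Cd274 and -0.14 to 0.76 for Pdcd1lg2 in whole libraries, -1.62 to -0.16 for Pdcd1 and -0.72 to 0.75 for Cd274 in T cells, and -1.54 to 0.14 for Pdcd1 and -0.83 to 0.80 for Cd274 in Cd8+ T cells. It gave -1.11 to -1.08 for Cd274 and -1.39 to 0.12 for Pdcd1lg2 in macrophages, and -1.71 to -1.06 for Cd274 and -0.25 to 1.68 for Pdcd1lg2 in monocytes. Calls over all genes without doxorubicin replicate 1, doxorubicin replicate 2, untreated replicate 1 and untreated replicate 2 in turn numbered 424, 534, 549 and 656 in whole libraries, 0, 1, 93 and 152 in T cells, 8, 2, 16 and 28 in Cd8+ T cells (0 with all 4 libraries), 54, 41, 3 and 2 in neutrophils, 3, 0, 1708 and 677 in macrophages, 94, 70, 140 and 136 in monocytes and 1124, 1620, 293 and 392 in epithelial cells. A lone library in a group is assumed to vary like the other group.

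Thinning cells to 2000 UMIs, which weights cells equally, moved T cell library ratios. In T cells Pdcd1 became 1.39 at 48 h, 1.02 for IgG over 48 h (0.927 before), 0.655 with anti-PD1, 1.25 with anti-CTLA4 and 1.53 with the combination, and Pdcd1lg2 1.13 at 48 h and 1.31 with anti-PD1. In macrophages Cd274 became 1.22 (1.218) at 48 h, 1.22 (1.217) with anti-CTLA4 and 1.83 with the combination (1.835), and Pdcd1lg2 0.285 with anti-PD1 and 4.31 with anti-CTLA4. In epithelial cells Cd274 became 1.65 for IgG over 48 h, 0.596 with anti-PD1 and 9.91 with the combination, which the stricter gate put at 2.19. Mean levels in UMIs per 10000 moved to 0.962 (stricter gate), 1.12 (Leiden) and 0.851 (thinned) for macrophage Cd274 after doxorubicin and 1.45 (Leiden) in untreated tumours, to 0.0128, 0.0857 and 0.0108 for epithelial Cd274 after doxorubicin and 0.107 (Leiden) in untreated tumours, and to 0.419, 0.417 and 0.448 for T cell Pdcd1lg2 in untreated tumours. Pdcd1 and Cd274 in T cells exceeded the product of their shares in 4 libraries after thinning.

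Dendritic cells were too few for a test, and shares of cells with a UMI rise with depth.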
